A study of Mus musculus with 6 samples.

Results

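The chemokine ligand genes were examined in small intestinal CCR6+ ILC3s labelled as lacking or carrying RANKL, the TNF family cytokine encoded by Tnfsf11. The set holds every gene whose annotation symbol is Ccl or Cxcl followed by a number, together with Xcl1, Cx3cl1, Pf4 and Ppbp. It came to 36 genes of the 19938 tested. Members were taken by name, but the set itself was chosen with earlier results of these data known. Expression was measured on 1 Affymetrix whole-transcript mouse array per sample, and values are log2 units after RMA, so a difference of 1 is a 2-fold change. The RANKL-deficient group holds 3 arrays from adult C57BL/6 mice with floxed Tnfsf11 alleles (Tnfsf11fl/fl) and a Cre transgene, and the control group holds 3 arrays from adult C57BL/6 mice with the floxed alleles and no Cre named in the labels. Both groups therefore carry the floxed alleles, and an effect of Cre itself cannot be told apart from that of the deletion. The Cre is driven by a lineage gene that ILC3s share, as background, with developing T cells, so the deletion need not be limited to ILC3s. The cells were sorted straight from the lamina propria and were not cultured. Probe sets for Ccl21 and Ccl27 genes carry several symbols and were not analysed here.

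Chemokines are small secreted proteins that direct the movement of leukocytes through G protein-coupled receptors. CC and CXC chemokines are named for the spacing of their first cysteines, and the C and CX3C families have 1 and 1 mouse member on these arrays, Xcl1 and Cx3cl1. Inflammatory chemokines are induced in many cell types by NF-kB and interferon signals and recruit neutrophils, monocytes and effector T cells. Homeostatic chemokines are made mainly by stromal, endothelial and epithelial cells and place lymphocytes in lymphoid tissue and mucosa. CCR6+ ILC3s are related to lymphoid tissue inducer cells and sit in the lymphoid follicles of the gut, where the CCR6 ligand CCL20 and the CXCR5 ligand CXCL13 are made by neighbouring cells.

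The targeted gene did not bear out the labels on these arrays. Tnfsf11 measured 8.36, 8.65 and 8.52 on the arrays labelled RANKL-deficient and 8.76, 8.41 and 8.25 on the arrays labelled control. The groups overlapped, and the difference was 0.04 (SE 0.17, 95% confidence interval −0.37 to 0.44, limma adjusted p = 0.963). The sources used here do not give which exons are floxed or where the gene's 1 probe set lies, so a transcript that has lost the floxed part but is still detected cannot be told apart from an intact one. RANKL-deficient and control are therefore the labels' names for the groups, here and in every direction given below.

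Array medians were alike, from 5.07 to 5.15, but control array 1 (SD over genes 1.86) and control array 2 (1.93) had narrower value distributions than the other 4 arrays (1.99 to 2.01). The median difference of all genes was −0.05. All 14 tested markers of ILC3 and LTi cells lay above the median gene, and their mean was 10.18 to 10.31 on RANKL-deficient arrays and 10.03 to 10.20 on control arrays. At an unadjusted p under 0.05 (limma), 1 of these markers was higher, Cd4 (0.69), and 0 were lower. Over all genes, 4.25% were higher and 3.9% lower at that threshold. Of the markers of other cells, 10 of 17 for monocytes, macrophages and dendritic cells lay above the median gene, 1 of 10 for granulocytes and mast cells, 6 of 12 for epithelium and 7 of 12 for stroma and endothelium. The stromal and endothelial mean was 5.42 to 5.53 on RANKL-deficient arrays and 5.62 to 5.81 on control arrays, without overlap. Of its 12 markers, 0 were higher and 0 lower at an unadjusted p under 0.05 (limma). Of all single genes, 9.08% were lower without overlap. The monocyte, macrophage and dendritic mean was 4.91 to 5.27 on RANKL-deficient arrays and 5.18 to 5.30 on control arrays. At an unadjusted p under 0.05 (limma), 0 of these 17 markers were higher and 1 was lower, Adgre1 (−0.54). Of 7 B and plasma cell markers, 2 were higher at that threshold, Mzb1 (0.34) and Xbp1 (0.50), and 0 lower. For the 10 granulocyte and mast cell, 12 epithelial and 5 ILC2 markers, both counts were 0. Whether such cells contribute to the ligand values below was not tested.

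Among the chemokine ligands, the 2 with the largest positive differences, arrays labelled RANKL-deficient minus arrays labelled control, were Cxcl2 (1.37) and Cxcl10 (1.13), and the other 34 lay between −0.50 and 0.55. None of the 36 passed the adjusted threshold of 0.05 (limma with Benjamini-Hochberg adjustment over all genes), where 0.00502% of all genes did, and their adjusted p lay between 0.536 and 0.991. Their median difference was −0.06, beside −0.05 over all genes, and 14 were higher and 22 lower (38.9% higher, against 39.5% of all genes). At an unadjusted p under 0.05, 2 ligands were higher, Cxcl2 and Cxcl10, and 0 were lower, where 4.25% of all genes were higher and 3.9% lower. The groups were free of overlap for 1 ligand in the higher direction, Cxcl2, and 1 in the lower, Ccl2, where 5.28% and 9.08% of all genes were. Over all genes the direction differed with the level, and the ligands are therefore given in both ranges. Of the 14 whose mean over the 6 arrays lay above that of the median gene (5.12), 10 were higher, against 54.7% of all genes in that range. Of the 22 at or below it, 4 were higher (18.2%), against 24.4% of all genes in that range. No background level was measured here, so a small difference in the lower range may not measure the transcript at all. In sorted bulk samples, fewer cells of a type and less RNA per cell cannot be told apart.

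**Figure D1:**
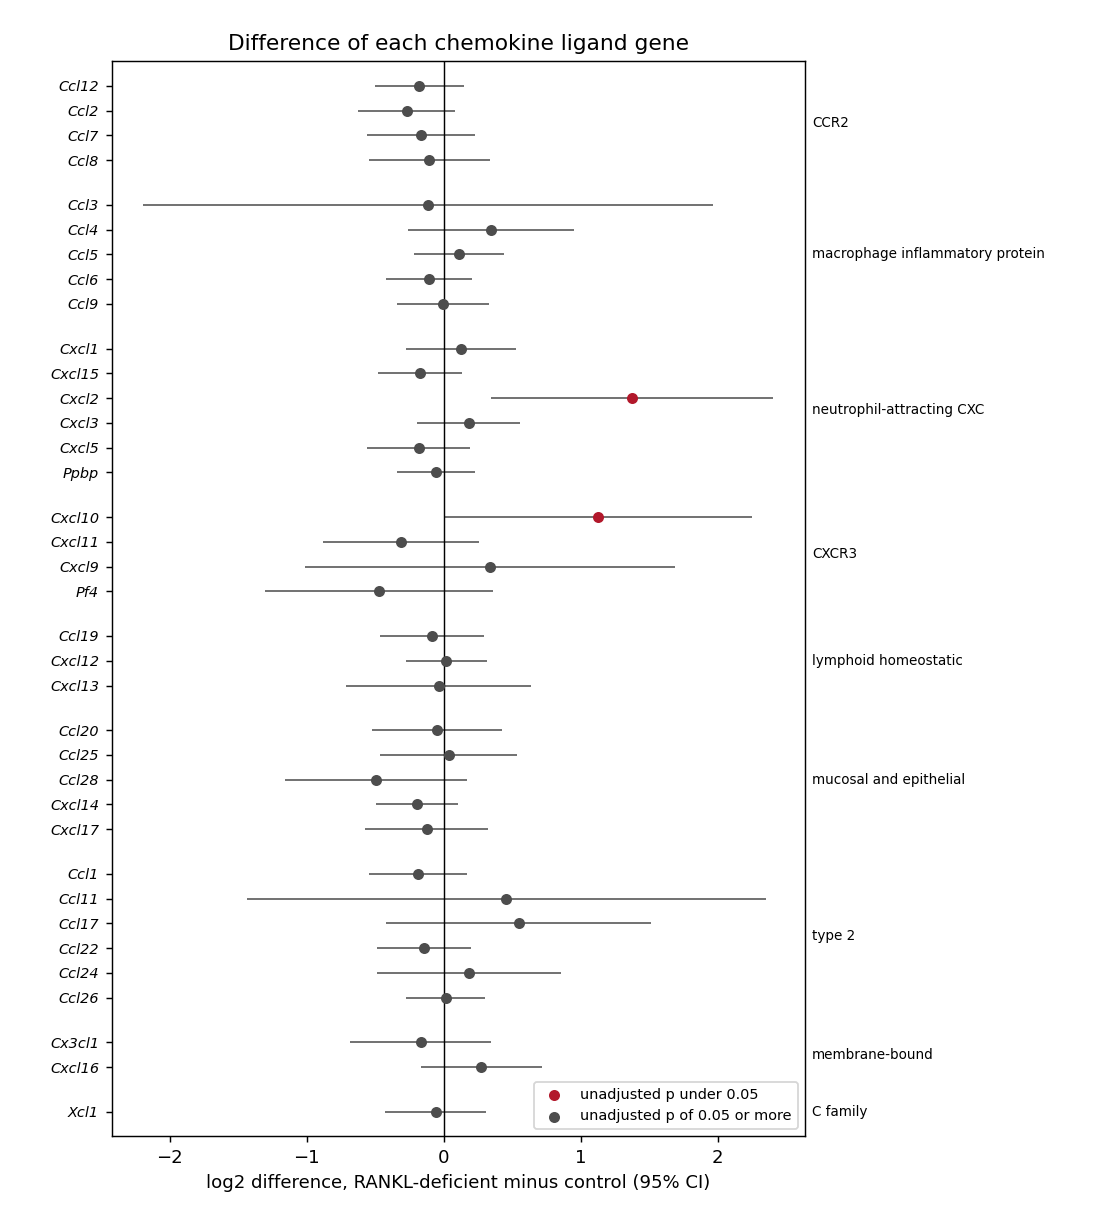
Log2 difference of each of the 36 ligand genes, arrays labelled RANKL-deficient minus arrays labelled control, grouped by role, with the 95% confidence interval from limma (n = 3 arrays per group). Red points have an unadjusted p under 0.05. Cxcl2 and Cxcl10 are the 2 ligands whose interval lies above 0.

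Cxcl2 and Cxcl10 are inducible chemokines, and the stretch of DNA before their start sites is shown here beside that of Cxcl1 and Cxcl3, the closest relatives of Cxcl2, for the letters these genes share. The promoters, the motifs and their length were chosen after the values were seen. RefSeq promoter windows (GRCm38.p6) were matched for 25 of the 36 ligands. The motif GGGNNNTTC, a shortened and permissive form of the NF-kB site, was searched on both strands (GAANNNCCC on the other) in windows from 250 bases before to 50 after the start. It occurred in 10 of the 25 ligand genes (40%), namely Ccl1, Ccl9, Ccl17, Ccl20, Cxcl1, Cxcl2, Cxcl3, Cxcl9, Cxcl10 and Xcl1, and in 4587 of all 32851 windows (14%). The motif GAAANNGAA (TTCNNTTTC on the other strand), a shortened core of interferon response elements, occurred in 6 of the 25 ligand genes (24%), Ccl1, Ccl3, Ccl19, Cxcl9, Cxcl10 and Cxcl14, and in 8.56% of all windows. These are 2 of 5 motifs that were looked at. The other three were the TATA box TATAAA, in 10 of 25 ligand genes (40%) and 13.6% of all windows, the AP-1 site TGACTCA, in 3 (12%) and 5.2%, and the STAT site TTCNNNGAA, in 2 (8%) and 8.3%. The shares depend on the motif's length. Both shown motifs were first searched with 1 more letter, a C at the end of the NF-kB form and an A at the end of the interferon form, which gave 7 of 25 ligand genes (28%) and 5.56% of all windows for the NF-kB form, and 3 (12%) and 3.44% for the interferon form. No test was made of any of these shares. In the 250 bases before each start, capitals mark matches to either motif, and overlapping matches on both strands form 1 run of capitals.
Cxcl2, plus strand, chr5:90903649-90903898: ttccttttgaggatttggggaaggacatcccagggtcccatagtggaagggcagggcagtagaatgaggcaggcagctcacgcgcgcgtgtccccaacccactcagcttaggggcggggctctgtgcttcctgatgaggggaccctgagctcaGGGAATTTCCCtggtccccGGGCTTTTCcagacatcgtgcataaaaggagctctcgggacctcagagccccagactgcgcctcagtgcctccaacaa
Cxcl1, plus strand, chr5:90890995-90891244: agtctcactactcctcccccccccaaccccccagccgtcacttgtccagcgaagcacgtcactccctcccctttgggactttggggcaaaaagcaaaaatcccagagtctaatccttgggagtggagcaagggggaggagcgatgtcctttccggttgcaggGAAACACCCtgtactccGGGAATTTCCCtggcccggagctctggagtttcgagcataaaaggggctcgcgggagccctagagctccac
Cxcl3, plus strand, chr5:90785851-90786100: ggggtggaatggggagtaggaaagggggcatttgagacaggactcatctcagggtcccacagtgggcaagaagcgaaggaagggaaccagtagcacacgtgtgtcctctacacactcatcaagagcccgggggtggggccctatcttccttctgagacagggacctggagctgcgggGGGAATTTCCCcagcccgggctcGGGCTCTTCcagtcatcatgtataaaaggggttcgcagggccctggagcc
Cxcl10, minus strand, chr5:92348890-92349139: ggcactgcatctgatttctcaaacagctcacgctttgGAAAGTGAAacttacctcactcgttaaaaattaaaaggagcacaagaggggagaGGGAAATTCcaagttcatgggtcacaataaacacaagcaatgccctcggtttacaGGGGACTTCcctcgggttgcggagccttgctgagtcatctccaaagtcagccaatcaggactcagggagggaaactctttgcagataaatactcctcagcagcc
Cxcl1, Cxcl2 and Cxcl3 each held GGGAATTTC, starting 71, 97 and 73 bases before the start. Cxcl10 held GGGAAATTC and GGGGACTTC, starting 159 and 104 bases before the start, and GAAAGTGAA, starting 213 bases before it. A match describes these letters and is not shown to be a bound site.

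Of the 6 CXC chemokines grouped as attracting neutrophils, Cxcl2 had the largest difference. Cxcl2, also called MIP-2, measured 7.29, 7.71 and 7.19 on RANKL-deficient arrays 1 to 3 and 7.10, 5.50 and 5.46 on control arrays 1 to 3. All RANKL-deficient arrays lay above all control arrays, but control array 1, at 7.10, lay close below the lowest of them, at 7.19. The means were 7.40 ± 0.28 in RANKL-deficient and 6.02 ± 0.94 in control cells (SD, n = 3 each), a difference of 1.37 or 2.59-fold (SE 0.44, 95% confidence interval 0.34 to 2.41, limma unadjusted p = 0.0162, adjusted p = 0.536). Permuting the arrays exactly gave a two-sided p of 0.1, the smallest that 3 against 3 allow. Without control array 1 the difference was 1.91 (limma adjusted p = 0.126), and without control array 2 or 3 it was 1.11 or 1.09. Its paralog Cxcl1, known as KC, measured 6.12 ± 0.24 in RANKL-deficient and 5.99 ± 0.18 in control cells, a difference of 0.12 with a 95% confidence interval of −0.28 to 0.52. Cxcl3, a further CXCR2 ligand, differed by 0.18 (−0.19 to 0.56) and lay below the median gene. Cxcl5, made chiefly by epithelial cells, differed by −0.18. Cxcl15, a lung-associated chemokine, differed by −0.18 and Ppbp, the platelet basic protein, by −0.06, and both lay below the median gene. In this group of 6 genes, 3 were higher and 3 lower, with a median of 0.03, where 39.5% of all genes were higher.

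The genes grouped as CXCR3 ligands, of which Cxcl9, Cxcl10 and Cxcl11 are interferon-induced, varied widely between arrays. Cxcl10, or IP-10, measured 8.15, 7.40 and 6.34 on RANKL-deficient arrays 1 to 3 and 5.94, 5.76 and 6.80 on control arrays 1 to 3. The groups overlapped, since RANKL-deficient array 3 lay below control array 3. The means were 7.29 ± 0.91 in RANKL-deficient and 6.17 ± 0.56 in control cells (SD, n = 3 each), a difference of 1.13 or 2.18-fold (SE 0.48, 95% confidence interval 0.0040 to 2.25, limma unadjusted p = 0.0494, adjusted p = 0.611; exact two-sided permutation p = 0.2). Leaving out RANKL-deficient array 1 gave 0.70, leaving out RANKL-deficient array 3 gave 1.61, and leaving out control arrays 1 and 2 together gave 0.49. Cxcl9, or MIG, measured 7.20, 7.57 and 7.58 on RANKL-deficient arrays and 5.69, 8.16 and 7.49 on control arrays. Control array 1 was the lowest array for Cxcl9 and control array 2 the highest, so the control values enclosed all RANKL-deficient values. The difference was 0.34 (95% confidence interval −1.02 to 1.69), and without control array 1 it was −0.38. Cxcl11, a CXCR3 ligand that in C57BL/6 mice is known not to give a functional protein, differed by −0.31 at a level below the median gene. Pf4, platelet factor 4, measured 3.19 ± 0.07 in RANKL-deficient and 3.67 ± 0.77 in control cells, where control array 2 stood at 4.54 and the other 5 arrays between 3.11 and 3.34. The difference was −0.47, and −0.037 without control array 2.

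**Figure D2:**
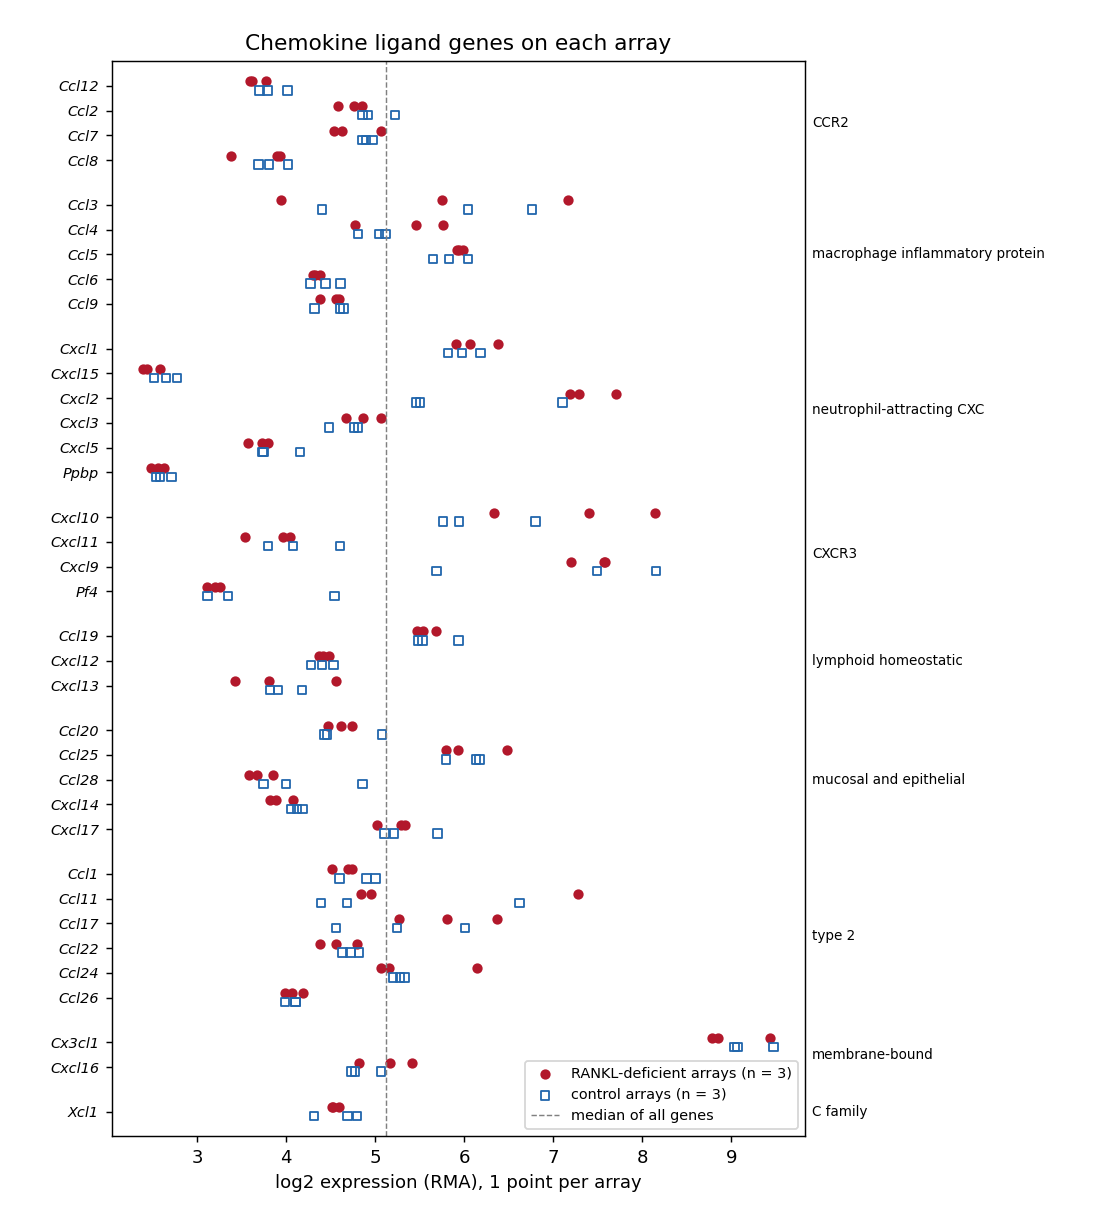
Log2 expression of each ligand gene on every array, grouped by role. Red circles are the 3 RANKL-deficient arrays, blue squares the 3 control arrays, and the dashed line is the median gene at 5.12. Values of different genes come from different probe sets and are not compared with each other.

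The confidence intervals of both membrane-anchored ligands held 0. Cx3cl1, or fractalkine, is an adhesion molecule and chemoattractant for CX3CR1+ cells. It measured 8.79, 8.85 and 9.44 on RANKL-deficient arrays 1 to 3 and 9.04, 9.07 and 9.48 on control arrays 1 to 3. Array 3 was the highest of each group, and the groups overlapped. The difference was −0.17 (SE 0.22, 95% confidence interval −0.68 to 0.34, limma adjusted p = 0.838). Cxcl16, the ligand of CXCR6, measured 5.13 ± 0.30 in RANKL-deficient and 4.86 ± 0.18 in control cells, a difference of 0.27 (−0.17 to 0.72).

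The 4 genes grouped as CCR2 ligands had differences between −0.27 and −0.11, and none passed the test. Ccl2, or MCP-1, the main monocyte chemoattractant, measured 4.85, 4.58 and 4.76 on RANKL-deficient arrays 1 to 3 and 5.22, 4.92 and 4.86 on control arrays 1 to 3. The groups did not overlap, though RANKL-deficient array 1, at 4.85, and control array 3, at 4.86, were nearly level. The difference was −0.27 (SE 0.15, 95% confidence interval −0.63 to 0.08, limma adjusted p = 0.679; exact two-sided permutation p = 0.1, the smallest possible). Ccl7, Ccl8 and Ccl12, further monocyte chemoattractants, differed by −0.17, −0.11 and −0.18. Mouse CCL8 is known as a CCR8 rather than a CCR2 agonist. All 4 lay below the median gene, where 75.6% of all genes were lower.

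The genes grouped with the macrophage inflammatory proteins gave no shared direction, with 2 of 5 higher, where 39.5% of all genes were higher. Ccl5, or RANTES, a product of T and NK cells, measured 5.95 ± 0.04 in RANKL-deficient and 5.84 ± 0.20 in control cells, a difference of 0.11 (95% confidence interval −0.22 to 0.44). Ccl4, or MIP-1 beta, differed by 0.34 (−0.26 to 0.95), Ccl6 by −0.11 and Ccl9, a mouse myeloid chemokine, by −0.01. Ccl3, or MIP-1 alpha, had the widest range of any ligand over the arrays, 3.22 log2 units, which exceeded that of 99.6% of all genes. It measured 3.94, 7.16 and 5.75 on RANKL-deficient arrays 1 to 3 and 4.40, 6.04 and 6.76 on control arrays 1 to 3. Replicate 1 was the lowest array of both groups, and the difference of −0.11 had a 95% confidence interval of −2.19 to 1.97. The mean of the 17 monocyte, macrophage and dendritic markers was 4.91, 5.24 and 5.27 on RANKL-deficient arrays 1 to 3 and 5.18, 5.30 and 5.18 on control arrays 1 to 3. Single markers behind this mean did not move together. In the same order, Cd68 measured 4.52, 6.47 and 6.50, then 4.80, 5.86 and 6.27. Fcgr1 measured 4.96, 4.67 and 5.23, then 6.59, 5.09 and 4.89. Cd68 and Fcgr1 were named after their values were seen. The part of such cells in the Ccl3 values was not tested.

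The 3 homeostatic ligands of lymphoid tissue had differences between −0.09 and 0.02, with intervals reaching from −0.71 to 0.63. Cxcl12, the stromal ligand of CXCR4, differed by 0.02 (95% confidence interval −0.28 to 0.31) and Cxcl13, the follicular B cell attractant, by −0.04 (−0.71 to 0.63), both at levels below the median gene. Ccl19, the CCR7 ligand of T cell zones, differed by −0.09 (−0.46 to 0.29). Ccl19 has 5 probe sets, of which 2 held identical values on every array, and their differences ran from −0.14 to −0.09. Near-identical copies of this gene exist in the mouse, so its values are uncertain.

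Of the mucosal and epithelial ligands, 4 of 5 had negative differences, where 60.5% of all genes did, and none passed. Of these 4, Ccl20, Ccl28 and Cxcl14 lay below the median gene, where 75.6% of all genes were lower. Ccl20, the ligand of the gating receptor CCR6, measured 4.62, 4.47 and 4.73 on RANKL-deficient arrays and 5.08, 4.46 and 4.43 on control arrays, a difference of −0.05 (95% confidence interval −0.52 to 0.43). Ccl25, the ligand of the gut homing receptor CCR9, differed by 0.04 (−0.46 to 0.54), but its other probe set gave −0.28. Ccl28, a mucosal ligand of CCR10, measured 3.70 ± 0.14 in RANKL-deficient and 4.20 ± 0.58 in control cells, where control array 2 stood at 4.86. Its difference was −0.50 (−1.16 to 0.17), and it was −0.17 without control array 2 and −0.72 without control array 3. Cxcl14 and Cxcl17, chemokines of skin and mucosal epithelium, differed by −0.20 and −0.13.

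Among the ligands linked to type 2 responses, 4 of 6 were higher, where 39.5% of all genes were, and none passed. Of these 4, Ccl11, Ccl17 and Ccl24 lay above the median gene, where 54.7% of all genes were higher. Ccl11, or eotaxin-1, which attracts eosinophils, measured 4.84, 4.95 and 7.27 on RANKL-deficient arrays 1 to 3 and 4.39, 4.68 and 6.62 on control arrays 1 to 3. Replicate 3 stood far above the other arrays in both groups, so the difference of 0.46 had a 95% confidence interval of −1.44 to 2.35. The stromal and endothelial marker mean was 5.42 on RANKL-deficient array 3, the lowest of all arrays, and 5.67 on control array 3. Single markers behind this mean did not move together. On RANKL-deficient arrays 2 and 3, Dcn measured 7.66 and 8.19, and Pdgfrb 6.06 and 5.66. Among control arrays, Dcn was highest on array 1, at 8.93, and measured 7.95 on array 3. The part of stromal cells in the Ccl11 values was not tested. Ccl17, the dendritic cell ligand of CCR4, measured 5.27, 5.81 and 6.37 on RANKL-deficient arrays and 4.56, 6.01 and 5.24 on control arrays, a difference of 0.55 (−0.42 to 1.51). It was 0.19 without control array 1, 0.27 without RANKL-deficient array 3 and 0.92 without control array 2. Ccl24, or eotaxin-2, differed by 0.19, with RANKL-deficient array 3 at 6.15 and the other 5 arrays between 5.06 and 5.33. Ccl22, the other CCR4 ligand, Ccl1, a CCR8 ligand, and Ccl26 differed by −0.15, −0.19 and 0.01. Xcl1, lymphotactin, which attracts cross-presenting dendritic cells, differed by −0.06 (−0.43 to 0.31). Beside Ccl5 and Xcl1, which T and NK cells make, the T cell marker mean was 5.40 to 5.68 on RANKL-deficient and 5.49 to 5.97 on control arrays, and the natural killer and ILC1 mean was 3.99 to 4.15 on RANKL-deficient and 4.11 to 4.52 on control arrays. The 8 T cell markers had a median difference of −0.01. At an unadjusted p under 0.05 (limma), 1 of them was higher, Lat (0.51), and 1 lower, Cd3g (−1.91). The shares over all genes at that threshold were 4.25% higher and 3.9% lower. Of the 8 natural killer and ILC1 markers, with a median of −0.21, 0 were higher at that threshold and 1 was lower, Ncr1 (−0.93). These markers were named after their values were seen, and their part in the ligand values was not tested.

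**Figure D3:**
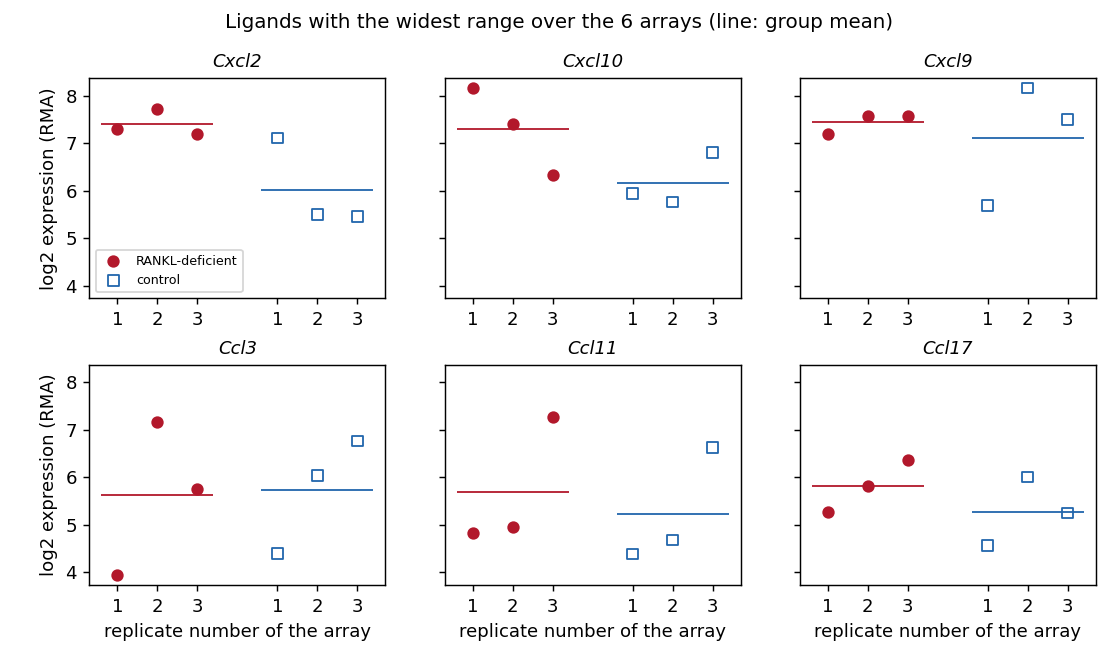
Log2 expression of the 6 ligands with the widest range over the 6 arrays, by array, RANKL-deficient arrays on the left (red circles) and control arrays on the right (blue squares), with group means as lines. Ccl3 is lowest on replicate 1 and Ccl11 highest on replicate 3 of each group, while Cxcl2 separates the groups with control array 1 at 7.10.

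The median range of the ligands over the 6 arrays was 0.64 log2 units, beside 0.59 over all genes, and a few ligands varied far more. The range exceeded 2 log2 units for 5 of 36 (13.9%), against 2.65% of all genes, and those 5 were Ccl3, Ccl11, Cxcl9, Cxcl10 and Cxcl2. It was under 1 log2 unit for 25 of 36 (69.4%), against 80.0% of all genes. RANKL-deficient array 1 was the lowest array for 13 ligands (36.1%), where it was the lowest for 18.2% of all genes. Control array 1 was the highest for 10 ligands (27.8%), where it was so for 33.4% of all genes. Of the 5 ligands with a range over 2 log2 units, the highest array was RANKL-deficient array 2 for Ccl3 and Cxcl2, RANKL-deficient array 3 for Ccl11, RANKL-deficient array 1 for Cxcl10 and control array 2 for Cxcl9. The lowest was RANKL-deficient array 1 for Ccl3, control array 1 for Ccl11 and Cxcl9, control array 2 for Cxcl10 and control array 3 for Cxcl2.

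Many ligand genes lie beside each other in the genome. In the RefSeq gene order, 7 ligand genes follow each other without another protein-coding gene between them, Cxcl5, Ppbp, Pf4, Cxcl3, Cxcl15, Cxcl1 and Cxcl2. Their median difference was −0.06, and the 6 other than Cxcl2 lay between −0.47 and 0.18. The run of Ccl2, Ccl7, Ccl11, Ccl12, Ccl8 and Ccl1 had a median of −0.17 with 5 of 6 lower, where 60.5% of all genes were lower. Those 5, all but Ccl11, lay below the median gene, where 75.6% of all genes were lower. The run of Ccl5, Ccl9, Ccl6, Ccl3 and Ccl4 had a median of −0.01. The neighbours Ccl22, Cx3cl1 and Ccl17 ran from −0.17 to 0.55, and Ccl26 and Ccl24 were at 0.01 and 0.19. Whether Cxcl2 differed from its neighbours was not tested.

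Among the receptors for these ligands, Ccr2 passed the test. Of 22 chemokine receptors tested, 14 were higher and 8 lower, with a median of 0.13, where 39.5% of all genes were higher. Among all genes above the median gene, that share was 54.7%, and the receptors were not split by level. The adjusted threshold was passed by 1 receptor, where 0.00502% of all genes passed. At an unadjusted p under 0.05, 4 were higher (against 4.25% of all genes) and 1 lower (against 3.9%). Ccr2, the receptor that was called, measured 7.98, 7.96 and 7.44 on arrays labelled RANKL-deficient and 5.15, 4.89 and 5.05 on arrays labelled control, a difference of 2.76 (SE 0.18, limma adjusted p = 0.0236). Its ligands Ccl2, Ccl7 and Ccl12 lay between −0.27 and −0.17. The Ccr2 call was lost in 5 of the 6 fits that left out 1 array (limma adjusted p from 0.0673 to 0.25 where lost), while the difference was 2.67 to 2.94 over the 6 fits. It was also lost without control arrays 1 and 2 together (2.74, limma adjusted p = 0.461). Ackr3, which scavenges CXCL12 and CXCL11, differed by 1.20 (limma adjusted p = 0.202), beside 0.02 for Cxcl12 and −0.31 for Cxcl11. Cxcr5 differed by 0.85 (limma adjusted p = 0.377), beside −0.04 for its ligand Cxcl13. Ccr8 differed by 1.05 (limma adjusted p = 0.607), with overlapping groups, beside −0.19 for Ccl1 and −0.11 for Ccl8. Ccr9 was the 1 receptor lower at an unadjusted p under 0.05, at −1.12 (limma adjusted p = 0.423), beside 0.04 for its ligand Ccl25. Cxcr2, the receptor of Cxcl2, measured 3.56 ± 0.33 in RANKL-deficient and 3.76 ± 0.47 in control cells, at a level below the median gene. Cxcr3, the receptor of Cxcl9 and Cxcl10, differed by 0.42 (95% confidence interval −0.13 to 0.96) and Cx3cr1, the receptor of Cx3cl1, by 0.31 (−0.14 to 0.77). Ccr6, the gating marker, differed by 0.32 and its ligand Ccl20 by −0.05.

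**Figure D4:**
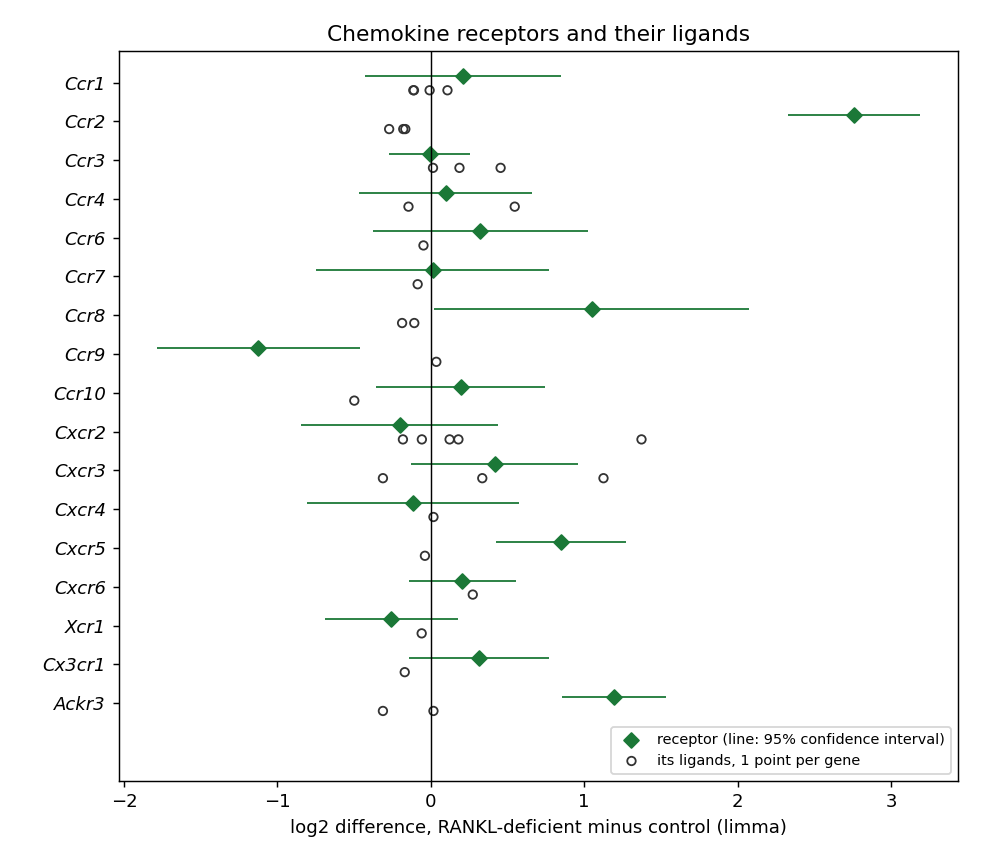
Log2 difference, RANKL-deficient minus control, of the chemokine receptors with a known ligand shown (green diamond with its 95% confidence interval from limma, n = 3 arrays per group) and of their ligands (open circles). Ccr2 lies at 2.76 while its ligands lie between −0.27 and −0.17, and Cxcl2 at 1.37 stands beside a receptor, Cxcr2, at −0.20.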

How the data were processed

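Each array measured RNA of sorted CCR6+ ILC3s, amplified from a small input, per the labels' protocols. The authors deposited log2 expression values of 35556 probe sets, which per the submitters' processing notes came from RMA in the Affymetrix Expression Console. Its version, settings and annotation are not stated in these sources. RMA equalises the arrays' intensity distributions and would hide a shift shared by most genes, and the number of arrays limits the precision.

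Probe sets with 1 annotation symbol were kept (21789), and symbols were updated by Entrez identifier from a RefSeq table of GRCm38.p6. For each of 19938 genes, its brightest probe set by the mean over 6 arrays was used, with no filter on low values. All 36 ligands matched RefSeq. Groups and replicate numbers came from the titles. The comparison used limma 3.58.1 (R 4.3.3; lmFit, eBayes, no replicate block), two-sided, adjusted by Benjamini-Hochberg over all genes. Single genes were also compared by exact permutation of arrays (SciPy 1.17.1). The labels do not say whether samples came from separate mice, so the spread behind the p-values may be technical. The procedure was tested on simulated data.

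The ligands, roles, markers and receptors were chosen with earlier results of these data known. Every ligand was named. Values on every array were planned for ligands with an unadjusted p under 0.05, groups that did not overlap, or a mean in the top 25% of genes (from 6.72). Those for Ccl3, Ccl11, Ccl17 and Ccl20, and single arrays elsewhere, were added after their values were seen, as were the promoter motifs. Receptors were named for an unadjusted p under 0.05 or as receptors of those ligands, and Ccr6 as the gating marker. Some planned genes are not reported here. Alternatives changed the normalization, the gene filter, the probe sets, the variance model, the array weights, the replicate block and the arrays used.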

Additional observations from a re-analysis of the deposited data

How the results depend on the processing

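No ligand passed the adjusted threshold in any of the 14 alternatives, the lowest adjusted p being 0.126 for Cxcl2 without control array 1 (limma). Cxcl2 kept its sign in all of them, from 1.09 to 1.94, with adjusted p from 0.126 to 0.870, and Cxcl10 from 0.49 to 1.61, with adjusted p from 0.319 to 0.952. Of the 36 ligands, 17 kept their sign in every alternative. The count higher at an unadjusted p under 0.05 was 2, and it was 1 with all probe sets tested, among the 14 ligands above the median gene, after quantile normalization, and without control arrays 1 and 2 together; the remaining gene was Cxcl2 each time. Leaving out 1 array gave 0 to 2, with 0 without RANKL-deficient array 2 and 1 without control array 1, 2 or 3. That 1 was Cxcl2, Ccl17 and Cxcl10 in turn. The 2 were Cxcl2 and Ccl4 without RANKL-deficient array 1, and Cxcl2 and Cxcl10 without RANKL-deficient array 3. Cxcl2 had an unadjusted p (limma) of 0.0527 without RANKL-deficient array 2, 0.0548 without control array 2 and 0.0620 without control array 3. The count lower was 0, and it was 2 with array weights, Ccl28 (−0.73) and Pf4 (−0.79), and 0 to 1 when 1 array was left out, the 1 being Ccl28 without control array 3. The ligands' median of −0.06 was 0.15 among the 14 above the median gene, where fewer genes enter, 0.0031 after quantile normalization, −0.0077 with arrays centred on their medians, 0.026 without control arrays 1 and 2 together, and −0.12 to −0.026 when 1 array was left out. With the replicate number as a block, the count higher was also 2, but the genes were Cxcl2 (1.37) and Ccl11 (0.46), and Ccr2 lost its call (2.76, adjusted p = 0.331). Over all genes, same-numbered arrays did not deviate together (correlations −0.023, 0.050 and 0.027). The labels do not say whether the numbers pair the samples, and correlations over all genes cannot decide it for single genes. After quantile normalization the sign turned for Ccl20 (0.0161), Ccl25 (−0.0362), Ccl9 (0.0759), Cxcl13 (0.0585), Ppbp (0.0385) and Xcl1 (0.0179). With arrays centred on their medians the sign turned for Ccl20 (0.0034), Ccl9 (0.0435) and Cxcl13 (0.0129). With array weights the sign turned for Ccl20 (0.0403), Cxcl12 (−0.0225), Cxcl13 (0.0303) and Cxcl9 (−0.096). Without control arrays 1 and 2 together, which leaves 1 control array assumed to vary like the others, the sign turned for Ccl1 (0.0477), Ccl11 (−0.94), Ccl19 (0.0828), Ccl20 (0.18), Ccl26 (−0.0249), Ccl9 (0.20), Cxcl11 (0.0521), Cxcl17 (0.004), Cxcl9 (−0.0427), Pf4 (0.0786), Xcl1 (0.23), Cxcr2 (0.30) and Ccr6 (−0.35). When 1 array was left out, the sign turned at least once for Ccl11 (−0.34 to 1.15), Ccl19 (−0.17 to 0.0579), Ccl20 (−0.16 to 0.16), Ccl24 (−0.16 to 0.38), Ccl25 (−0.17 to 0.17), Ccl26 (−0.040 to 0.0591), Ccl3 (−0.89 to 0.72), Ccl8 (−0.20 to 0.0689), Ccl9 (−0.11 to 0.0573), Cxcl1 (−0.0064 to 0.23), Cxcl12 (−0.0455 to 0.0811), Cxcl13 (−0.35 to 0.21), Cxcl17 (−0.24 to 0.055), Cxcl9 (−0.38 to 0.86), Cxcr2 (−0.45 to 0.0081) and Xcl1 (−0.20 to 0.040). The cause of these changes was not tested. All sign changes were in values that did not pass the test.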
